A study of Rattus norvegicus with 12 samples.

Results

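The 10 genes described here code for tenascins and other matricellular and repair-associated matrix proteins: Tnc and Tnn (tenascin-C and tenascin-W), Fn1 (fibronectin), Postn (periostin), Spp1 (osteopontin), Thbs1 and Thbs2 (thrombospondins), Cthrc1, Cilp and Sparc. They were chosen by name from the gene table, which lists 40154 genes, with earlier results of these data known. All 10 were among the 17687 genes that passed the filter on low counts. RNA came from bladder of female Wistar rats aged 10 to 12 weeks. The groups were uninjured controls and rats 7, 14 and 28 days after the spinal cord was completely transected at thoracic segment 10, with 3 libraries in each of the 4 groups. The series text speaks of 20 rats and of segments 9 to 10, and 12 libraries were analysed. No genotype, allele or drug is named for any group, and the labels do not say whether the controls had a sham operation or whether a library held 1 bladder or several.

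Matricellular proteins are secreted into the extracellular matrix, where they mainly tune how cells attach to, read and remodel it. Many are scarce in resting adult tissue and are made in bulk by fibroblasts and other stromal cells after wounding or under mechanical load, while fibronectin forms the provisional scaffold on which collagen is later laid down. Cells sense them through integrins, CD44, CD36 and syndecans, and TGF-beta is the best known inducer of several of them. In the bladder, loss of voiding control after cord injury leads to overfilling, and remodelling of the matrix between detrusor bundles is a known feature of the neurogenic bladder.

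The RefSeq promoter table of assembly GRCr8 held 7 of the 10 members, namely Tnn, Tnc, Postn, Spp1, Thbs1, Cilp and Sparc. Since these genes moved together at day 7, the 250 bases before each start were searched on both strands for TATAAA, for the AP-1 motif TGANTCA, for the TEAD motif GGAATG, for the RUNX motif TGTGGT and for the CArG box of SRF. The 5 stretches below are the 160 bases before the start of the members that had a match within that distance; capitals mark the matches.
Tnn: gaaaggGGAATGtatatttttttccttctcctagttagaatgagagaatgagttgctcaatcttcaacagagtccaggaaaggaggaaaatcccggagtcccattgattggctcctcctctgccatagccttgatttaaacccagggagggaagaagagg
Postn: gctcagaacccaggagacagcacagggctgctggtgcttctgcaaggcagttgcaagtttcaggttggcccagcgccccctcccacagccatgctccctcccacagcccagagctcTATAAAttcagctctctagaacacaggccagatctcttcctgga
Thbs1: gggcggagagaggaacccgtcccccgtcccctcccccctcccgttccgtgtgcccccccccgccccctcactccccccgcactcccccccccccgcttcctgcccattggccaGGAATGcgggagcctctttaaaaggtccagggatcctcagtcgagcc
Cilp: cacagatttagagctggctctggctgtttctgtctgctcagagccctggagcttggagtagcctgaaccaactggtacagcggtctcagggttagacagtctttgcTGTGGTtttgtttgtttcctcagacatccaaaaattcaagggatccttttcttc
Sparc: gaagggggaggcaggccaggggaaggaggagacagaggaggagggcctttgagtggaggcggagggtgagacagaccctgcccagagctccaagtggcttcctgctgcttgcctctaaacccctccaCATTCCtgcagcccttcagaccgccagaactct
On GRCr8 these are chr13:74919790-74919949 (minus strand), chr2:140677901-140678060 (plus), chr3:125510090-125510249 (plus), chr8:74672288-74672447 (plus) and chr10:40038817-40038976 (minus). GGAATG stood in 3 of the 7 promoters, in Tnn at 154 to 149 bases and in Thbs1 at 47 to 42 bases before the start, and on the opposite strand in Sparc at 33 to 28 bases. The same letters occurred in 12.1% of all 33469 promoters. TATAAA stood in 3 of 7, against 12.9% of all promoters, in Postn at 44 to 39 bases, and in Tnc and Spp1 farther out, from 208 and 204 bases. Only these exact letters were searched, so variants such as the TATATAA that Tnc holds nearer its start were not counted. TGTGGT stood in Cilp at 54 to 49 bases and, on the opposite strand, in Sparc from 205 bases, against 14.5% of all promoters. TGANTCA and the CArG box were in none of the 7, against 6.34% and 1.5% of all promoters. None of these motifs overlapped another in the members, and a match is only a match of letters.

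The libraries held 26275314 to 30747936 read counts. Levels are given as CPM, counts scaled to library size after TMM. Markers of urothelium and smooth muscle summed to at least 3210 CPM and 7960 CPM in every library, as the tissue label has it. The labels give replicate numbers but not litters or days, so p-values measure the spread between these libraries. Replicates differed by more than sampling noise, with a chi-square per degree of freedom of 16.1 to 126 over all pairs. In bulk tissue, fewer cells of a type and less RNA per cell cannot be told apart.

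At day 7 all 10 members were higher than in control. Each was called at an adjusted p under 0.05 (edgeR's quasi-likelihood test, Benjamini-Hochberg), against 15.6% of all tested genes called higher, and in each the 3 injured libraries lay above the 3 controls, as 23.6% of tested genes did. The median change was 3.97 on the log2 scale, against -0.01 over all tested genes, and single members ranged from 0.98 for Sparc to 9.92 for Tnn. Since the members were chosen with earlier results of these data known, the values for all tested genes are a backdrop and no test of enrichment. Together the 10 genes held 0.474% ± 0.0453 (SD, n = 3) of all counts in control bladders and 1.81% ± 0.0780 at day 7. By day 14 that share was 0.456% ± 0.0740, and at day 28 it was 0.439% ± 0.189, with libraries from 0.254% to 0.631%. The plot of members by library shows a peak at day 7 in every panel, and a spread-out day 28 group in most panels, with replicate 3 often at the low end and replicate 2 often at the high end. Endothelial markers (Pecam1, Cdh5, Vwf, Kdr, Tie1) had a peak at day 7 as well, with a summed level of 150 to 168 CPM in controls, 553 to 634 at day 7, 181 to 311 at day 14 and 264 to 440 at day 28. All 5 were called higher at day 7 and at day 28, and all 5 lower from day 7 to day 14. Urothelial markers went the other way at day 7, from 5010 to 5780 CPM down to 3210 to 3880 CPM, with 3 of 6 called lower. The part of either list in the members' values was not tested.

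**Figure D1:**
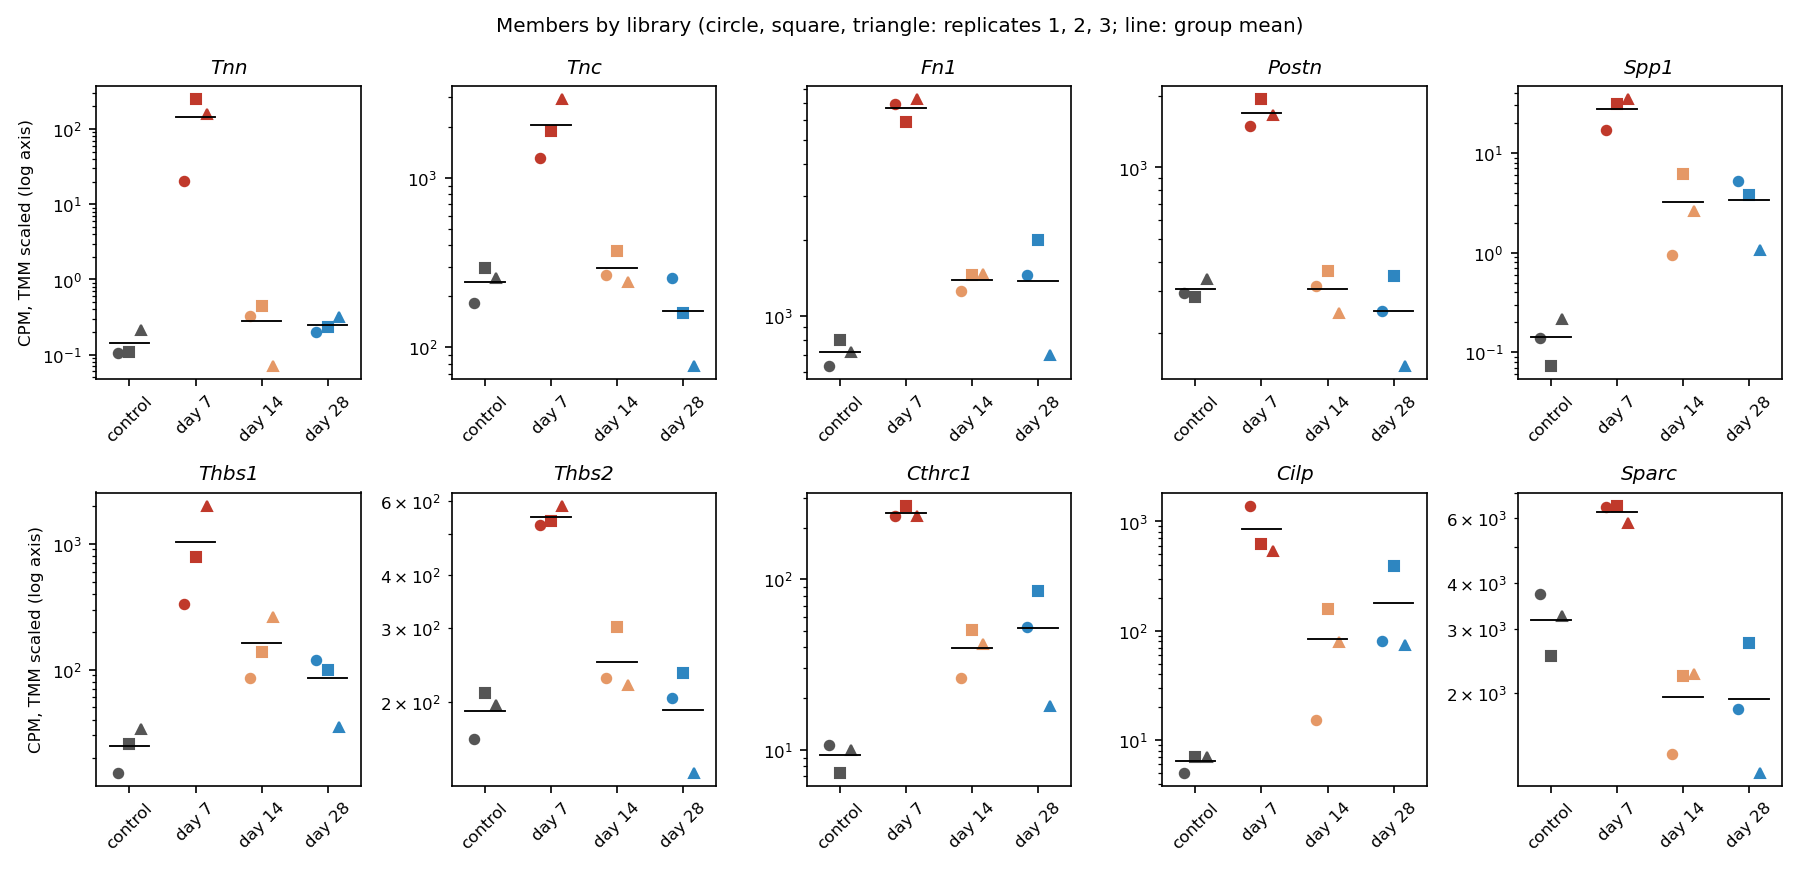
Level of each of the 10 members in CPM (log axis) in control, day 7, day 14 and day 28 libraries; circles, squares and triangles are replicates 1, 2 and 3, and the line is the group mean. All 3 day 7 libraries lie above all 3 controls in each panel, and Tnn returns to under 0.5 CPM at days 14 and 28.

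Fn1 (rn6 chr9:78900111-78969018, minus strand, 8338 bases of deposited gene length), the scaffold protein, stood at 632, 804 and 718 CPM in controls and at 6980, 5920 and 7260 CPM at day 7. The 3 day 7 libraries were close to one another, and the rise was 3.23 ± 0.31 (SE) on the log2 scale (adjusted p = 0.000103). At day 14 the libraries held 1260, 1450 and 1470 CPM, above every control, yet the change of 0.96 ± 0.29 was not called (adjusted p = 0.105). At day 28 they held 1450, 2000 and 696 CPM, and replicate 3 fell within the control range. That difference, 0.94 ± 0.29, was called (adjusted p = 0.0405), but the call was lost in 9 of the 12 fits that left out a library (adjusted p 0.051 to 0.166), namely without any 1 of the 3 controls, day 7 replicate 2 or 3, day 14 replicate 2 or 3, or day 28 replicate 1 or 2. The call was also lost in an edgeR fit of only the 2 groups compared (adjusted p = 0.0909) and with a replicate block (0.0563).

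Tnc (chr5:79789686-79874555, minus strand), the tenascin best known from wounds and stretched muscle, read 182, 296 and 255 CPM in controls and 1310, 1900 and 2910 CPM at day 7. It rose by 3.06 ± 0.42 (adjusted p = 0.000537). Both later groups overlapped the controls, with 269, 371 and 242 CPM at day 14 and 256, 160 and 77.6 CPM at day 28. The changes against control of 0.27 ± 0.39 and -0.57 ± 0.39 were not called (adjusted p = 0.789 and 0.352).

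Tnn (chr13:77829384-77896831, minus strand), a tenascin found mostly around bone, tendon and some stromal niches, was all but silent outside day 7. The control libraries held 3, 3 and 6 counts, which is 0.104 to 0.214 CPM. At day 7 they held 553, 7138 and 4380 counts, or 20.3, 248 and 159 CPM, so replicate 1 was far below the other two and the highest library was 12.2 times the lowest. The fitted change of 9.92 ± 1.00 ranked 1st among the 17687 tested genes (adjusted p = 0.000128), and was 9.24 without day 7 replicate 2. Tnn passed the filter on low counts only through its day 7 libraries. Its rank and call thus depend on the group in which it was high and are given as description. Since the controls summed to 12 counts, the ratio of summed counts after scaling is given with its exact 95% interval for counting error: 1010, from 579 to 1960. At days 14 and 28 the groups summed to 24 and 23 counts, and the ratios to control were 1.98 (0.955 to 4.36) and 1.77 (0.845 to 3.90). A pair of antisense genes overlap Tnn, and they held 0 and 4 counts over all 12 libraries. The 5 fixed bone and cartilage markers (Bglap, Sp7, Acan, Col2a1, Matn3) summed to 0.869 to 2.05 CPM at day 7 and 0.174 to 0.536 CPM in controls.

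Postn (chr2:143656820-143688087, plus strand) codes for a collagen-binding protein of fibroblasts. It read 294, 285 and 339 CPM in controls and 1490, 1940 and 1660 CPM at day 7, a rise of 2.47 ± 0.27 (adjusted p = 2e-04). It was at 315, 367 and 242 CPM at day 14 and 247, 348 and 145 CPM at day 28, both overlapping the controls. The day 14 change was 0.01, with a 95% interval of -0.56 to 0.58, and the day 28 change was -0.31 (-0.88 to 0.26).

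Thbs1 (chr3:109862120-109873466, plus strand) codes for a thrombospondin that can release TGF-beta from its latent form and restrains vessel growth. Controls held 15.2, 25.5 and 33.8 CPM and day 7 libraries 334, 789 and 2000 CPM, the day 7 libraries differing 6-fold. The rise was 5.39 ± 0.76 (adjusted p = 0.00058), and 4.48 without day 7 replicate 3. Erythroid markers were also highest in that library, at 8190 CPM against 405 and 837 CPM in the other day 7 libraries and 151 to 724 CPM in controls, and all 4 erythroid markers found were called higher at day 7. The 5 platelet markers summed to 20.2 to 37.9 CPM at day 7 and 8.93 to 13 CPM in controls, with 3 of 3 tested called higher. The part of either list in the Thbs1 value was not tested. Thbs1 was still above every control at day 14, with 85.4, 137 and 261 CPM, and at day 28, with 120, 100 and 35 CPM. Day 14 replicate 3, the highest of its group, held 172 CPM of neutrophil markers against 6 and 6.57 CPM in the other day 14 libraries and 1.32 to 1.82 CPM in controls, and their part in the Thbs1 value was not tested. Neither later difference from control was called (2.70 ± 0.67, adjusted p = 0.0604, and 1.78 ± 0.65, adjusted p = 0.0821), and the former was 2.17 without day 14 replicate 3 (adjusted p = 0.189), although DESeq2 called both (adjusted p = 0.00378 and 0.0488). EdgeR called the day 14 difference in 4 of the 12 fits that left out a library, those without day 7 replicate 1 or 3, day 14 replicate 1 or day 28 replicate 3 (adjusted p 0.0358 to 0.0482), and the day 28 difference in 2, those without day 7 replicate 1 or 3 (0.0466 and 0.0473). It also called the day 14 difference with no filter on low counts (adjusted p = 0.0248). In fits of only the 2 groups compared it called the differences at day 14 and day 28 (0.0257 and 0.0329).

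Thbs2 (chr1:56653929-56683571, minus strand), a related thrombospondin of fibroblasts that limits collagen fibril size and vessel growth, changed less. It read 163, 210 and 197 CPM in controls and 525, 538 and 584 CPM at day 7, a tight group and a rise of 1.53 ± 0.19 (adjusted p = 0.00035). At day 14 it was at 228, 301 and 219 CPM, just above the controls without being called (0.39 ± 0.19, adjusted p = 0.309). At day 28 it was at 204, 234 and 136 CPM, a change of 0.01 with an interval of -0.40 to 0.42. Vom2r7, on the same strand, overlaps Thbs2 and held 0 counts in all libraries.

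Spp1 (chr14:6673686-6679965, minus strand) codes for osteopontin, an adhesive phosphoprotein made by macrophages, bone cells and epithelia. It was barely detected in controls, with 4, 2 and 6 counts. Day 7 libraries held 463, 899 and 952 counts, or 17, 31.3 and 34.5 CPM, and the ratio of summed counts was 194 (exact 95% interval 111 to 376, counting error only). The fitted rise was 7.55 ± 0.88 (adjusted p = 0.000238). Later libraries stayed above every control, at 0.946, 6.09 and 2.59 CPM on day 14 and 5.24, 3.76 and 1.06 CPM on day 28, with ratios of 22.8 (12.9 to 44.7) and 23.3 (13.2 to 45.6). Both were called (adjusted p = 0.0288 and 0.00476), with fitted changes of 4.45 ± 0.87 and 4.51 ± 0.87, the former 3.59 without day 14 replicate 2 (adjusted p = 0.0497). All 7 macrophage markers rose at day 7 and at day 28, and 1 of 7 at day 14. Their summed level was 380 to 452 CPM in controls, 1150 to 1480 at day 7, 483 to 845 at day 14 and 977 to 1410 at day 28, and their part in the Spp1 result was not tested.

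Cthrc1 (chr7:77966722-77977004, plus strand) codes for a secreted collagen triple helix repeat protein known from injured vessels and scar-forming fibroblasts. It rose from 10.7, 7.36 and 10.0 CPM to 233, 269 and 234 CPM at day 7 (4.71 ± 0.49, adjusted p = 0.000138). The day 7 libraries were within 1.15-fold of one another. It remained above every control at day 14, with 26.3, 50.1 and 41.6 CPM (2.07 ± 0.44, adjusted p = 0.0377). At day 28 it was at 52.6, 85.3 and 18.0 CPM, again above every control (2.47 ± 0.44, adjusted p = 0.00336).

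Cilp (chr8:70760922-70775891, plus strand), a matrix protein first found in cartilage that binds TGF-beta and dampens it, behaved like Cthrc1 with wider spread. Controls held 5.05, 7.03 and 7.04 CPM and day 7 libraries 1390, 628 and 534 CPM, a rise of 7.06 ± 1.00 (adjusted p = 0.000606). Here replicate 1 was the highest of the day 7 libraries, whereas it was the lowest for Tnn, Tnc, Postn, Thbs1, Thbs2, Spp1 and Cthrc1. At day 14 Cilp was at 15.2, 157 and 79.3 CPM (3.72 ± 0.87, adjusted p = 0.049), and the change was 2.89 without replicate 2 of that group (adjusted p = 0.103). At day 28 it was at 79.8, 388 and 73.4 CPM (4.82 ± 0.91, adjusted p = 0.00422), and the change was 3.59 without replicate 2 of that group (adjusted p = 0.011).

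Sparc (chr10:40742390-40764232, minus strand) codes for osteonectin, a collagen chaperone of the matrix that resting connective tissue makes in quantity. It read 3720, 2530 and 3250 CPM in controls and 6420, 6460 and 5800 CPM at day 7. The rise of 0.98 ± 0.28 (adjusted p = 0.0243) was the smallest of the 10, and the call was lost without control replicate 2, control replicate 3 or day 7 replicate 2 (adjusted p = 0.0951, 0.0647 and 0.0684). Afterwards Sparc lay under the control mean. All 3 day 14 libraries, at 1370, 2230 and 2260 CPM, were below every control, as in 13.2% of tested genes, and 2 of the 3 day 28 libraries, at 1820 and 1220 CPM, were as well, while replicate 2 held 2740 CPM. These differences of -0.70 ± 0.28 and -0.71 ± 0.28 were not called (adjusted p = 0.213 and 0.0988), and DESeq2 called the day 28 difference (adjusted p = 0.0427), as did edgeR without day 28 replicate 2 (-1.06, adjusted p = 0.0256). Summed fibroblast markers (Pdgfra, Dcn, Lum, Col1a1, Col1a2, Col3a1) were at 19700 to 25300 CPM in controls, 33200 to 40900 at day 7, 9220 to 13700 at day 14 and 7600 to 16500 at day 28. Col1a1 and Col3a1 made up most of that sum. Dcn was at 1980 to 2630 CPM in controls and at 1890, 873 and 880 CPM at day 7 (-0.90, adjusted p = 0.0582), and Lum at 457 to 662 and 444 to 587 CPM. Of the 6 markers, 1 rose at day 7 (Col1a2), 1 fell at day 14 (Lum) and 3 fell at day 28 (Lum, Col1a1 and Col1a2), and their part in the members' changes was not tested. Col1a2 was at only 48.8 to 55.3 CPM in controls, where Col1a1 was at 8250 to 12300 CPM, and the reason for this gap was not tested.

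**Figure D2:**
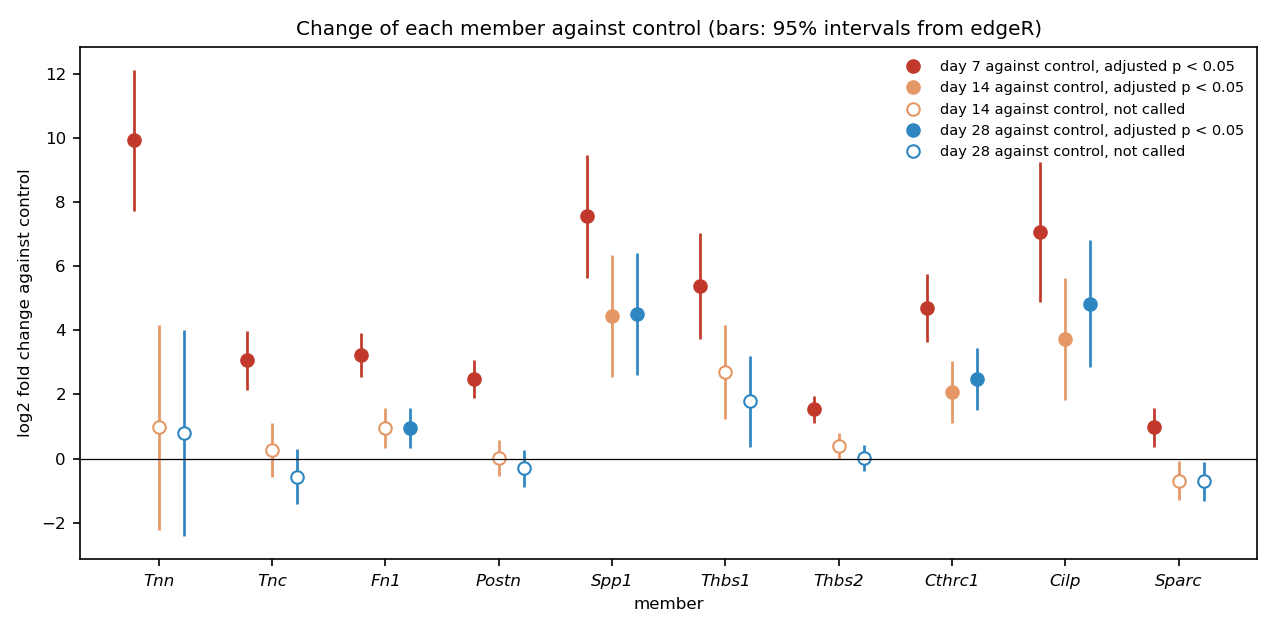
Change of each member against control on the log2 scale at days 7, 14 and 28, with 95% intervals from edgeR; filled points were called at an adjusted p under 0.05. All 10 points of day 7 are filled, against Spp1, Cthrc1 and Cilp at day 14 and these 3 with Fn1 at day 28.

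From day 7 to day 14 all 10 members fell, against 12.0% of tested genes called lower, with all day 14 libraries below all day 7 libraries in each gene, as in 19.2% of tested genes. The median change was -2.66, from -1.14 ± 0.19 for Thbs2 (adjusted p = 0.00242) to -8.95 ± 0.93 for Tnn (adjusted p = 0.000236). The mean at day 14 was 0.199% of the day 7 mean for Tnn, 9.87% for Cilp, 31.3% for Sparc and 45.4% for Thbs2, and 11.6% to 20.7% for the other 6. The Thbs1 fall of -2.69 ± 0.67 (adjusted p = 0.0168) was -1.78 and not called without day 7 replicate 3 (adjusted p = 0.0668), nor was it called without day 14 replicate 1 or 2 (0.0649 and 0.0542). The Cilp fall of -3.34 ± 0.83 (adjusted p = 0.0172) was not called without day 14 replicate 3 (0.051). Without day 14 replicate 2 it was -4.17, and that of Spp1 was -3.96 in place of -3.10; the Tnn fall was -8.28 without day 7 replicate 2.

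Against control, 3 members were higher at day 14 (Spp1, Cthrc1 and Cilp), where 1.45% of tested genes were called higher, and 0 were lower; the median change was 0.96 against 0.00 for all tested genes. In 6 members all day 14 libraries lay above all controls (Fn1, Thbs1 and Thbs2 besides the 3 called), as did 11.5% of tested genes. The day 14 calls were fragile. None of the 3 was kept without any 1 of the control libraries or without day 14 replicate 3 (adjusted p 0.0671 to 0.181), and Spp1 alone was kept without day 7 replicate 2 or day 14 replicate 2. Cilp was also lost without day 7 replicate 3 (adjusted p = 0.0595), and Fn1 was called without day 28 replicate 3 (0.0155). DESeq2 called 5, adding Fn1 (adjusted p = 0.0148) and Thbs1.

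At day 28, 4 members were higher (Spp1, Cilp, Cthrc1 and Fn1), where 11% of tested genes were called higher, and 0 were lower. In Spp1, Cilp, Cthrc1 and Thbs1 all day 28 libraries lay above all controls, against 20.9% of tested genes. Tnn, Tnc, Postn and Thbs2 were not called at day 14 or day 28. Day 28 replicate 3 was the lowest of its group in 9 members, all but Tnn, and day 28 replicate 2 was the highest in Fn1, Postn, Thbs2, Cthrc1, Cilp and Sparc. In day 28 replicates 1, 2 and 3, fibroblast markers summed to 11900, 16500 and 7600 CPM. Smooth muscle markers summed to 17900, 13000 and 7960 CPM, and urothelial markers to 3420, 3640 and 4380 CPM. The part of these lists in the members' values was not tested.

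Between day 14 and day 28 edgeR called 0 of the 10, where 4.34% of tested genes were called, and 0 passed an unadjusted p under 0.05; DESeq2 also called 0. The interval of the difference was -0.63 to 0.61 for Fn1 and -0.89 to 0.25 for Postn. It was -0.58 to 2.79 for Cilp, -2.96 to 2.63 for Tnn and -2.31 to 0.47 for Thbs1. For Tnc it was -1.7 to 0.03, for Spp1 -1.29 to 1.41 and for Cthrc1 -0.51 to 1.31. Larger shifts of Cilp, Tnn, Thbs1, Tnc, Spp1 and Cthrc1 are thus not excluded. Against day 7, 9 of 10 were lower at day 28, where 10.8% of tested genes were called lower. All 10 had every day 28 library below every day 7 library, against 18.2% of tested genes. The Tnn change of -9.12 ± 0.94 was -8.45 without day 7 replicate 2, and the Thbs1 change of -3.61 ± 0.69 was -2.72 without day 7 replicate 3. Cilp, at -2.24 ± 0.79, was not called (adjusted p = 0.0721), and it was called without day 28 replicate 2 (-3.47, adjusted p = 0.0181) or day 14 replicate 1 (0.0318). It was also called by DESeq2 (0.0361), with a replicate block (-2.75, 0.0353) and with no filter on low counts (0.0478), so that all 10 members were lower in each of these fits. The 3 days share their controls, so the values against control are set side by side only.

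Levels of different genes were compared per kilobase of deposited gene length. Sparc led in every group, with 1490 ± 283 CPM per kilobase (SD, n = 3) in controls and 2940 ± 175 at day 7. In controls Postn (93.1 ± 8.72) and Fn1 (86.1 ± 10.3) followed and did not differ beyond their spread, and Thbs2 (33.1 ± 4.26) and Tnc (32.0 ± 7.61) came next, also within their spread. Cthrc1 (7.70 ± 1.45) and Thbs1 (6.89 ± 2.59) overlapped, Cilp was at 1.54 ± 0.278, and Spp1 and Tnn were under 0.1. At day 7 Fn1 (806 ± 84.8) stood above Postn (517 ± 69.4), and Thbs1 (289 ± 240), Tnc (267 ± 106), Cilp (206 ± 113) and Cthrc1 (202 ± 16.9) overlapped. Thbs2 (95.8 ± 5.43), 4th in controls, was 8th, ahead of Tnn (24.2 ± 19.5) and Spp1 (17.4 ± 5.88). Fn1 kept the 2nd place at day 14 (167 ± 13.9) and day 28 (166 ± 78.4), with Postn 3rd (93.7 ± 19.0 and 75.1 ± 31). Cilp, 8th in controls, was 4th at day 28 (43.7 ± 43.6), within the spread of Cthrc1 (42.7 ± 27.7) and Thbs2 (33.4 ± 8.81). That place rested on day 28 replicate 2, without which the Cilp mean was 18.6 and again 8th. At day 7 the Thbs1 mean was 156 and 7th without replicate 3, and the Tnn mean was 15.2 and 10th without replicate 2.

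**Figure D3:**
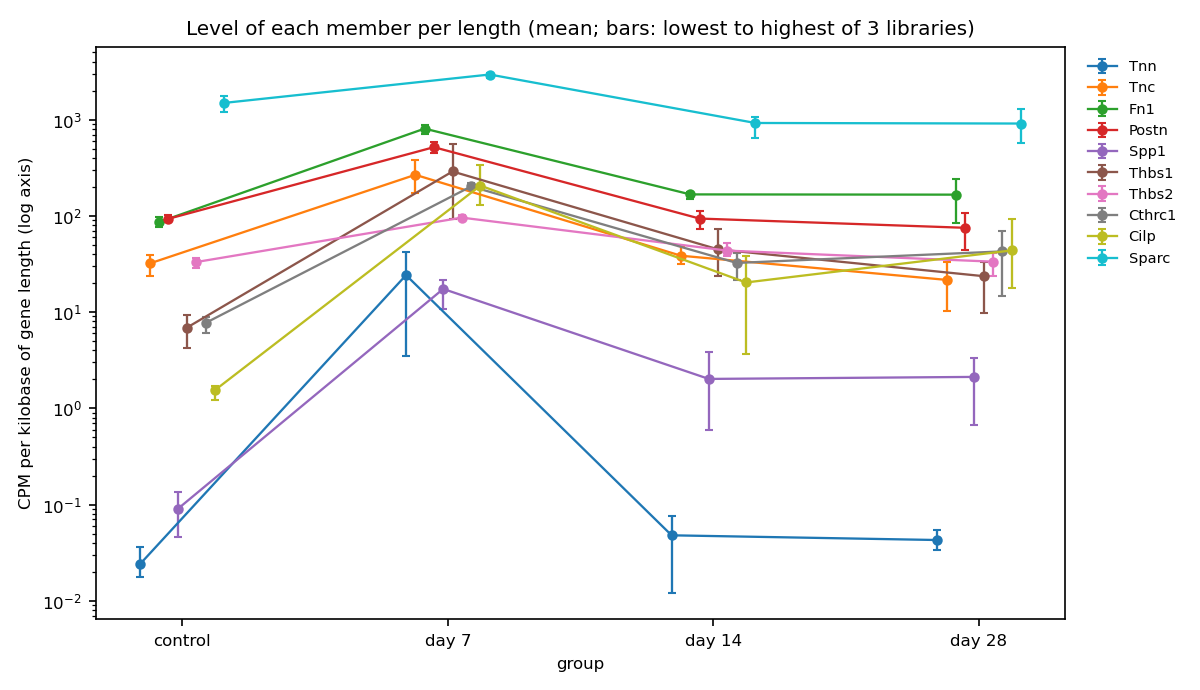
Mean level of each member in CPM per kilobase of deposited gene length (log axis) by group, with bars from the lowest to the highest of 3 libraries. Sparc is at the top throughout, Fn1 is next from day 7 on, and Tnn spans the widest range.

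The deposited transcript counts gave a second readout that the gene totals do not fix. A read was taken to be counted for every transcript model that holds it, a rule that the submitters' processing notes do not state. The count of a longer model less that of a shorter model is here called a block and given as a percent of the gene's counts. It gives the reads in the bases that only the longer has if the shorter lies wholly within it. That was not checked, and otherwise a block is a net difference of counts. Alternative pairs of Fn1 models gave the same block counts in 12 of 12 libraries. These pairs draw on the same reads, so their match is no separate evidence. No alternative pair was compared for Tnc, Postn or Cthrc1. Blocks are known by length only, since exon positions of the models were not used here. By length the 270-, 273- and 360-base blocks were 3.24%, 3.27% and 4.32% of Fn1. The 1647- and 273-base blocks were 21.6% and 3.58% of Tnc, and the others 5.08% of Postn and 3.7% of Cthrc1. Control means were 7.85% for the 360-base Fn1 block and 14.3% for the Cthrc1 block, above these values. A share is therefore not the percent of transcripts that hold a named exon. The pairs were chosen after the data were seen, and 7 blocks in 4 genes were tested, the 9 injured libraries against the 3 controls, with a two-sided exact permutation test whose smallest p is 0.00909. For a single day against control the smallest p is 0.1. The adjustment over the 7 blocks does not cover the choice of pairs.

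In Fn1 a block of 270 bases, the length of the extra domain A exon found in cellular fibronectin of wounds, made up 1.92%, 1.27% and 1.43% of the counts in controls (280 to 348 reads). It made up 2.97%, 3.26% and 3.64% at day 7, 2.54%, 3.00% and 2.38% at day 14, and 2.35%, 2.29% and 2.26% at day 28. All 9 injured libraries were above all 3 controls, including day 28 replicate 3, in which the total Fn1 level lay within the control range. The injured mean was 2.74% against 1.54%, a difference of 1.20 percentage points (exact permutation p = 0.00909, adjusted over the 7 blocks 0.0212), and 1.07 to 1.39 with any 1 library left out. With 2 controls the smallest p is 0.0364, and the adjusted p was then 0.0636 to 0.0848; without an injured library it was 0.0212 to 0.0283. A block of 273 bases, the length of extra domain B, was at 0.866% to 1.32% in controls and 1.44% to 1.65% at day 7. At days 14 and 28 it stood at 0.826% to 1.06% in 5 of the 6 libraries, day 14 replicate 1 being the lowest and below every control, and at 1.93% in day 14 replicate 2. The injured libraries as a whole did not pass the test (exact permutation p = 0.373). A 360-base block, the length of the variable region, was at 7.52% to 8.14% in controls and 7.87% to 9.17% after injury (exact permutation p = 0.0273, adjusted 0.0382), and this difference of 0.717 points missed the unadjusted threshold without any 1 of the controls (exact permutation p = 0.0727 to 0.109) and the adjusted one without any injured library but day 28 replicate 3 (adjusted 0.0509).

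In Tnc the block of 1647 bases that separates the longest from the shortest model made up 14.6%, 14.8% and 15.9% of counts in controls. It made up 6.81%, 10.2% and 11.1% at day 7, 10.3%, 6.78% and 8.56% at day 14, and 7.22%, 8.54% and 7.74% at day 28. The share was lower in all 9 injured libraries than in any control, with means of 8.57% and 15.1% (exact permutation p = 0.00909, adjusted 0.0212). A 273-base block of Tnc was at 4.13% to 4.54% in controls and 1.55% to 2.99% after injury, with the same p values. Both Tnc blocks come from models of the same gene and may share reads, so they are not separate evidence. As for the 270-base block of Fn1, both calls held after adjustment without any 1 injured library (adjusted exact permutation p 0.0212 to 0.0283), whereas without a control only the unadjusted p, at its smallest value of 0.0364, was under 0.05 (adjusted 0.0636 to 0.0848). The share was still lower at days 14 and 28, when the Tnc level itself overlapped the controls.

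In Postn a block of 167 bases was at 4.25%, 4.83% and 5.16% in controls and at 2.29%, 1.33% and 1.34% at day 7. It was at 4.98%, 2% and 3.68% at day 14 and 2.87%, 1.75% and 3.66% at day 28, so that 8 of the 9 injured libraries were below all controls (exact permutation p = 0.0273, adjusted 0.0382). This call was lost without any 1 of the controls (exact permutation p = 0.0727 to 0.109), and after adjustment also without any injured library but day 14 replicate 1 (adjusted exact permutation p = 0.0509). In Cthrc1 a 45-base block was at 10.4% to 16.7% in controls and 9.27% to 15.2% after injury (exact permutation p = 0.155).

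**Figure D4:**
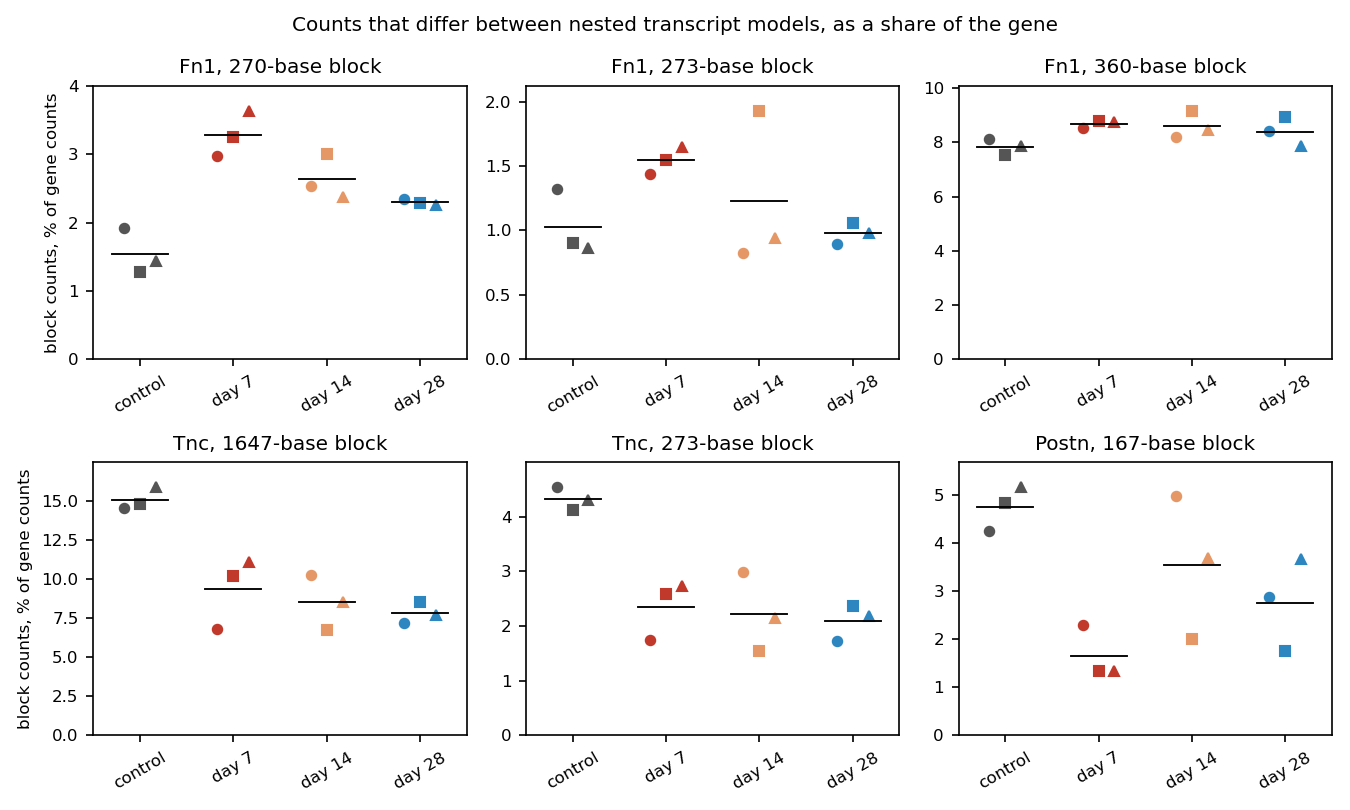
Counts of the longer less the shorter transcript model (a block), as a percent of all counts of the gene, by library. Circles, squares and triangles are replicates 1, 2 and 3, lines are group means, and axes start at 0. The 270-base block of Fn1 is above the controls in all 9 injured libraries, and both Tnc blocks are below them.

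Other genes of the same pathway came from 3 lists, also chosen with earlier results of these data known: related matricellular genes, receptors, and regulators. Of 32 related genes, 31 were found and 23 passed the filter. At day 7, 13 rose and 2 fell, with a median change of 0.76, where 15.6% and 10.5% of all tested genes were called higher and lower. Ccn4, a CCN family protein downstream of Wnt, went from 2.81 ± 0.457 to 33.0 ± 15.1 CPM (3.55 ± 0.47, adjusted p = 0.000418). Fbln2, a fibulin that binds fibronectin and elastic fibres, went from 30.7 ± 3.62 to 280 ± 85.7 CPM (3.19 ± 0.45, adjusted p = 0.000574), and the pentameric thrombospondin Thbs4 from 14.7 ± 4.38 to 229 ± 125 CPM (3.96 ± 0.60, adjusted p = 0.000837). Spock2, a proteoglycan related to Sparc, fell from 108 ± 24.2 to 16.4 ± 8.42 CPM (-2.72 ± 0.40, adjusted p = 0.000714). At day 14 edgeR called 0 of the 23, with 7 at an unadjusted p under 0.05, while DESeq2 called 3, and edgeR called 3 when fitted to the 2 groups only, 1 with a replicate block and 1 with no filter. At day 28, 3 rose and 2 fell, with a median of 0.08, where 11% and 7.51% of tested genes did. Fbln2 was among those that rose, at 88.3 CPM (1.52). It was not called without any 1 control or day 28 replicate 2 (adjusted p 0.0698 to 0.118). Spock2 was still lower, at 37.0 ± 12.7 CPM (-1.54 ± 0.38, adjusted p = 0.0159), though not called without control replicate 1 or day 28 replicate 3 (0.0608 and 0.055). Ecm1, a secreted glycoprotein, was at 159 ± 18.8 against 282 ± 12.3 CPM (-0.83 ± 0.13, adjusted p = 0.00186).

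All 20 receptors were tested, and 12 rose and 2 fell at day 7 (median 0.61), where 15.6% and 10.5% of all tested genes did. The fibronectin receptor chains Itga5 and Itgb1 went from 156 ± 21.2 to 1220 ± 159 CPM (2.97 ± 0.35, adjusted p = 0.00025) and from 694 ± 23.4 to 1670 ± 101 CPM (1.27 ± 0.15, adjusted p = 0.000229). Both were back near control at day 28, with changes of 0.49 ± 0.33 and 0.06 ± 0.14 that were not called. Itga8, whose integrin binds osteopontin, fibronectin and tenascin-C, went from 7.93 ± 1.53 to 187 ± 81.4 CPM (4.56 ± 0.59, adjusted p = 0.000413) and was still higher at day 28, at 48.7 ± 26 CPM (2.62 ± 0.55, adjusted p = 0.00738). Itga4, a fibronectin receptor chain also carried by leukocytes, was higher at day 7 (2.78 ± 0.20, adjusted p = 2.9e-05), day 14 (1.52 ± 0.19, adjusted p = 0.00748) and day 28 (2.40 ± 0.19, adjusted p = 6.6e-05). At day 14, 2 receptors were called higher (Itga4 and Itga8), where 1.45% of tested genes were, Itga8 not without any 1 control or day 14 replicate 2 or 3 (adjusted p 0.0588 to 0.129). DESeq2 called 7 receptors at day 14, and edgeR called 5 with no filter or in the 2 groups only. At day 28, 7 were higher and 1 lower, where 11% and 7.51% of tested genes were. Itgb8, part of an integrin that activates latent TGF-beta, did not follow the members: it was at 40.3 ± 5.01 CPM in controls and 36.2 ± 10.0 CPM at day 7, and at 195 ± 58.2 CPM at day 28 (2.28 ± 0.24, adjusted p = 0.000177). Its level rose between day 14 and day 28 by 1.72 ± 0.24 (adjusted p = 0.00411), though in a fit of these 2 groups only the call was lost (1.70, adjusted p = 0.0534).

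All 26 regulators were tested, and 8 rose and 1 fell at day 7 (median 0.28), where 15.6% and 10.5% of all tested genes did. Tgfb1 went from 26.1 ± 0.321 to 83.1 ± 10.7 CPM (1.67 ± 0.13, adjusted p = 4.1e-05), and Tgfb3 from 46.2 ± 11.7 to 267 ± 85.1 CPM (2.53 ± 0.41, adjusted p = 0.00136). Prrx1, a mesenchymal homeobox factor, went from 20.4 to 72.0 CPM (1.82 ± 0.29, adjusted p = 0.00105), and Runx2, known from bone, from 3.95 to 10.9 CPM (1.47 ± 0.23, adjusted p = 0.000929). At day 28, 3 regulators were higher and 1 lower, shares near the 11% and 7.51% of all tested genes. Tgfb1 (1.39 ± 0.13, adjusted p = 0.000101) and Runx2 (1.62 ± 0.23, adjusted p = 0.000843) were higher, while Tgfb3 (-0.07 ± 0.39) and Prrx1 (0.56 ± 0.28) were not called, Prrx1 being called without day 28 replicate 3 (0.86, adjusted p = 0.0181). The list holds 9 factors of mechanical signalling, a subset named after the values were seen. Tead4, a DNA-binding partner of YAP, rose from 5.91 ± 1.33 to 15.5 ± 4.43 CPM at day 7 (1.39 ± 0.30, adjusted p = 0.00597), while Yap1, Wwtr1, Srf, Mrtfa, Mrtfb, Tead1, Tead2 and Tead3 had changes of -0.25 to 0.19 and were not called.

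**Figure D5:**
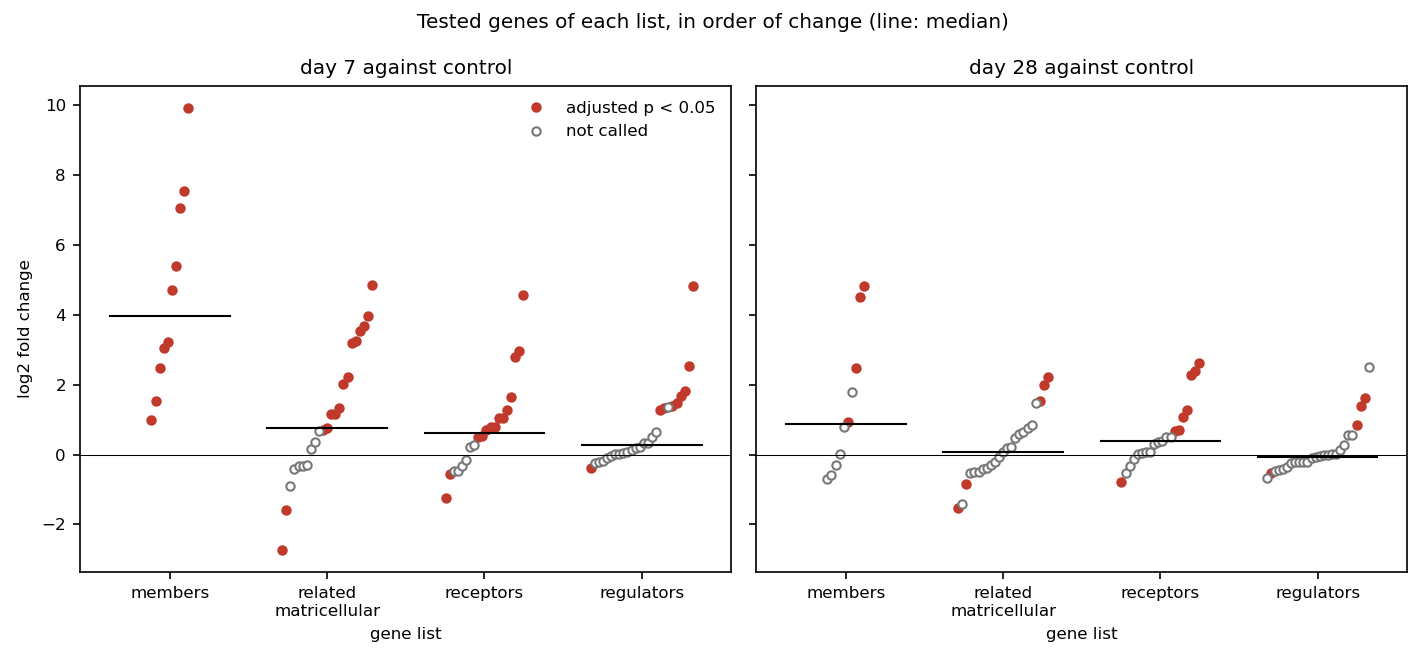
Change on the log2 scale against control at day 7 and day 28 for the members and the tested genes of 3 lists, ordered by change within each list; filled points were called and lines are medians. The members' median is 3.97 at day 7 and 0.87 at day 28, against 0.61 and 0.38 for the receptors.

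Over the 12 libraries the 45 pairs of members had Pearson correlations of log2 CPM from 0.47 to 0.98, with a median of 0.83. These libraries fall into 4 groups that share the day 7 peak. With group means removed, the pairs ranged from -0.28 to 0.93, median 0.56, and 4 were below 0. All 4 were pairs of Tnn, with Fn1 (-0.2), Cthrc1 (-0.03), Sparc (-0.17) and Cilp (-0.28). Tnn held only 2 to 13 counts in each library outside day 7, so its correlations rest on values near the floor. Among 11078 genes with a mean of at least 5 CPM, those most like the mean standardized profile of the members were Slit3 (r = 0.994), Dpysl2 (0.986), Msn (0.984), Pxdn (0.983) and Ltbp1 (0.981). By the same measure the nearest gene to each member was Ptprv for Tnn, Plod2 for Tnc, Slit3 for Fn1, Hspg2 for Postn, Itga8 for Spp1, Adamts1 for Thbs1, Calu for Thbs2, Ldlrad4 for Cthrc1, Galnt16 for Cilp and Col3a1 for Sparc (r from 0.977 to 0.988). Ranked by Spearman correlation, Slit3 alone of the first 5 was again among the nearest, and each member had another nearest gene.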

How the data were processed

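The authors deposited whole-number read counts for each gene and each mRNA transcript model, with a length in bases per row, as the file headers and values show; nothing in these columns is scaled. Per the labels, ribosomal RNA was removed from total bladder RNA before TruSeq library preparation, and single reads of 50 bases were sequenced. HISAT2 2.1.0, HTSeq 0.11.2, bcl2fastq and rn6 appear in the submitters' processing notes, with no role stated for any. The strand setting of the counting is not given there.

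EdgeR 4.0.16 in R 4.3.3 was run on the counts after filterByExpr (count 10, total 15) and TMM scaling, with 1 quasi-likelihood fit of all 12 libraries. P-values were adjusted by Benjamini-Hochberg over the 17687 tested genes and called under 0.05. A standard error (SE) is the size of the log2 change over the root of its F statistic. Exact intervals are at 95% and cover counting error only. Permutation tests used scipy 1.17.1, and plots matplotlib 3.10.9. The code of the fit was tried on simulated counts, with the same spread for all genes and changes placed only in well-counted genes. That trial does not bear on genes with few control counts, such as Tnn and Spp1. Alternatives were DESeq2 1.42.0, RLE scaling, no filter, a mean of at least 5 CPM, only the groups compared, a replicate block, and each library left out.

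The members and lists were chosen with earlier results of these data known. Named list genes are the 4 with the smallest p at day 7 and the 2 at day 28. Same-numbered replicates did not deviate together throughout (correlations over all genes -0.022 to 0.151, over 0.1 in 5 of 18 pairs). Tables of non-coding RNA and the authors' own comparisons were not used here.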

Additional observations from a re-analysis of the deposited data

How the results depend on the processing

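The direction of every member's change at day 7 was the same under all alternatives, and the number called was 9 to 10. The numbers do not pair the samples by any label; a replicate block gave 10, 2 and 4 members against control at days 7, 14 and 28 (Cilp lost at day 14, adjusted p = 0.0571; Fn1 lost at 0.0563 and Thbs1 gained at 0.0455 at day 28), and 4788, 460 and 3440 genes. At day 14, DESeq2 and the fit of only the 2 groups called 5 members each, and leaving out a library 0 to 5; all genes called were 433, 1360 with DESeq2, 251 at a mean of at least 5 CPM, and 16 to 579 with a library left out. With a library left out, all genes called were 3061 to 4948 at day 7, 1971 to 3580 at day 28, 1959 to 3706 from day 7 to day 14 (2195 in only these groups), 261 to 1120 from day 14 to day 28 (DESeq2 1647, only these groups 42) and 1954 to 3548 from day 7 to day 28. Signs turned for changes that were not called: Postn at day 14 (0.00 at a mean of at least 5 CPM, -0.03 with the block, -0.13 to 0.17 with a library left out), Thbs2 at day 28 (0.00 with the block, -0.16 to 0.21), and, from day 14 to day 28, Fn1 (0.00 at a mean of at least 5 CPM, -0.37 to 0.31), Spp1 (-0.43 to 0.92), Tnn (-0.63 to 0.34), Sparc (-0.36 to 0.22), Cthrc1 (-0.16 to 0.81) and Cilp (-0.13 to 1.93). Among list genes at day 28, so did Tgfb3 (-0.37 to 0.23), Ccn4 (-0.14 to 0.55), Itgb1 (-0.12 to 0.19) and Thbs4 (-0.19 to 0.97). Leaving out day 28 replicate 2 turned Cilp (from 1.1 to -0.13), Cthrc1 (from 0.40 to -0.16) and Thbs4 (from 0.58 to -0.19). The cause was not tested. On raw library totals the per-kilobase level of Thbs2 at day 7 was 89, and Sparc at day 7 was 2730. Groups of 3 libraries limit every call, and Tnn and Spp1 rest on 12 control counts each.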
